A study of Mus musculus with 18 samples.

Results

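Hox genes encode homeodomain transcription factors that give the body axis its regional identity. In the mouse they lie in clusters A to D, and genes at the same place in different clusters share a paralogue number and are related by descent. They are switched on in order along the chromosome, low numbers first and furthest forward, so that their most forward expression lies in the hindbrain while the forebrain and midbrain lie ahead of the Hox domain. Low-numbered genes pattern the hindbrain, middle numbers the neck and chest levels of the spinal cord, and high numbers the lower back, tail and limbs. Retinoic acid switches on the low-numbered genes through receptors that bind near them, Polycomb proteins hold the clusters silent elsewhere, and Hox proteins bind DNA with TALE cofactors of the Pbx, Meis and Pknox families.

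The members were the probe sets annotated to a single gene symbol made of Hox, a cluster letter from a to d and a number. There were 48 of them among 45037 tested probe sets, and they covered 33 of the 39 Hox cluster genes in the RefSeq gene table, out of 18193 genes with a probe set annotated to 1 symbol. Cluster A was covered by 16 probe sets for 9 of its 11 genes. Cluster B had 11 probe sets for 9 of 10 genes, cluster C had 11 for 7 of 9, and cluster D had 10 for 8 of 9. The remaining genes of the clusters were not analysed here, nor were 3 probe sets annotated to several Hox genes.

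The arrays came from transgenic mice of the C57BL/6J X DBA/2J background, which the labels give as 11 and 14 weeks old without assigning an age to a sample. The mice carried a flag-tagged rat poly(A)-binding protein, followed by eGFP, in place of the orexin coding sequence of a bacterial artificial chromosome, so that orexin regulatory sequence drove the transgene. The 9 IP samples held RNA recovered with anti-flag beads from brains of these mice after formaldehyde perfusion, and the 9 WB samples held total RNA of whole brain from transgenic mice. Orexin neurons lie in the lateral hypothalamus of the forebrain, ahead of the Hox domain. The labels do not say whether arrays came from separate animals, and a p-value here reflects the scatter among arrays, part of which may be technical. In bulk RNA, fewer cells of a type and less RNA per cell cannot be told apart.

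Hox promoters are shown here because the cluster's low-numbered genes are known retinoic acid targets. RefSeq promoter sequences (build GRCm38.p6), from 250 bases before to 50 bases after a gene's start, were matched for 19 of the 33 member genes and 22 Hox genes in all, with 24 promoters. The half-site of the retinoic acid receptor, AGGTCA, was searched on both strands and occurred in 7 of the 24 Hox promoters (29.2%), against 16.3% of all 32851 promoters. The Pbx and Hox motif TGATNNAT, also on both strands, occurred in 4 of the 24 (16.7%) against 8.85%, and neither motif contains the other. Hox promoters had a median GC content of 57.7%, against 52.7% for all promoters. Their median number of CpG dinucleotides in the 300 bases was 14.5, against 7 for all promoters. Of the 11 genes named with array values by the naming rule, 7 had a promoter in the table, and 4 of these held AGGTCA. The windows below are the 24 bases around that match, 5′ to 3′ on the gene's strand, with AGGTCA or its reverse complement in capitals. A match describes the letters and is not evidence of a bound site.
Hoxd3, chr2:74711823-74711846, plus strand: acctttttaTGACCTatttgcggt
Hoxa5, chr6:52204538-52204561, minus strand: cgagtttacctctagAGGTCAtca
Hoxb4, chr11:96318177-96318200, plus strand: gcgcccctaTGACCTagtgggtac
Hoxc4, chr15:103034240-103034263, plus strand: gctgccctgTGACCTacacagact

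Hox signal was dim in both groups. On the scale log2(intensity + 16), which is used for all means and differences, the members' IP means had a median of 6.55 and their WB means a median of 6.19. Over all probe sets the medians were 7.43 in IP and 7.99 in WB. Among the 48 members, 8 lay above the median IP mean of all probe sets and 3 above the median WB mean. As a further scale, the 3 probe sets for the bacterial trpn transcripts had means of 5.92 to 6.31 in IP and 5.70 to 5.92 in WB. The highest trpn mean was exceeded by 29 Hox probe sets in IP and by 28 in WB. Probe sets bind with different strength, so levels of different genes are descriptions only.

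The caudal genes had the lowest median of the 3 paralogue classes in both groups. Paralogues 1 to 4, the hindbrain class, had 16 probe sets with a median of 6.64 in IP and 6.40 in WB. Paralogues 5 to 8 had 15 with a median of 6.98 in IP and 6.54 in WB. Paralogues 9 to 13, the caudal class, had 17 with a median of 6.12 in IP and 5.54 in WB, and 0 of these lay above the median probe set in either group. The 10 members with the highest WB means belonged mostly to the first and second of these classes, with paralogue 3 to 5 genes of all 4 clusters among them. They were, in falling order, Hoxa5, Hoxb5, Hoxa3, Hoxb3, Hoxc6, Hoxb4, Hoxd3, Hoxc4, Hoxa7 and Hoxd12, and the last is a caudal gene of limb and genital development. A low number was not enough for a bright signal, as 2 hindbrain genes known from rhombomere patterning show. Hoxb1, which marks rhombomere 4 in the embryo, averaged 5.92 in IP and 5.86 in WB, and Hoxb2 averaged 5.28 in IP and 5.60 in WB. Hoxd13, a gene of the digits and hindgut chosen as the caudal end of its cluster, had probe sets that averaged 4.64 and 6.12 in IP against 4.51 and 6.76 in WB. These members, and Hoxa2 below, were picked outside the naming rule.

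**Figure D1:**
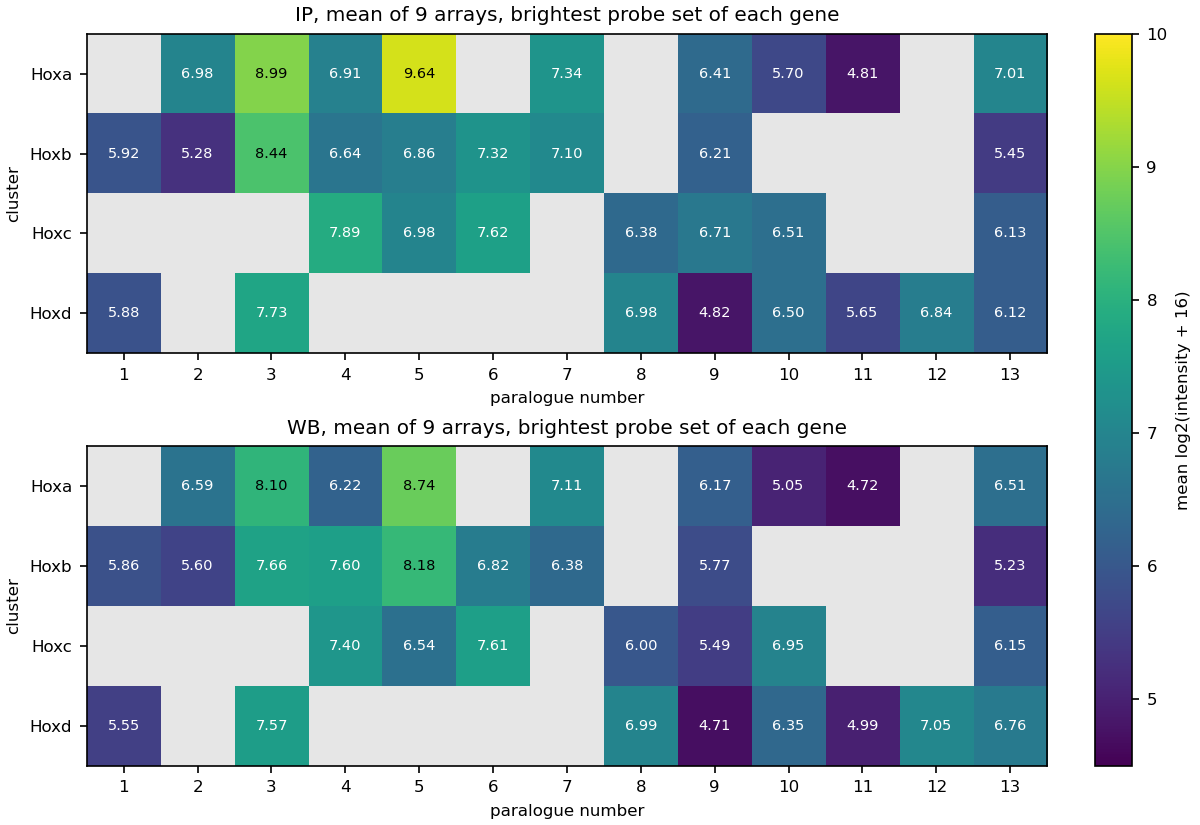
Mean log2(intensity + 16) of the brightest probe set of each Hox gene in IP (upper panel) and WB (lower panel), with clusters down the page and paralogue numbers across; each cell is a mean of 9 arrays and grey cells have no member. Hoxa5 had the highest mean in both panels (9.64 in IP and 8.74 in WB), and paralogues 9 to 13 were 7.05 or below throughout.

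Between the groups, 6 of the 48 Hox probe sets (12.5%) passed limma's test at an adjusted p of 0.05, against 45% of all probe sets. Higher in IP were 5 (10.4%, against 14.2% of all probe sets) and lower was 1 (2.08%, against 30.8%), while 42 were not called. The groups were free of overlap in 0 of the 48, against 15.5% of all probe sets. Over the members the median difference was 0.36, with 38 differences above 0 and 10 below, beside -0.23 over all probe sets. Of the 8993 probe sets whose WB means lay between the quartiles of the Hox WB means, 5.52 and 6.96, 20.8% were called, with a median difference of -0.04. In that set 9.01% were higher and 11.8% lower, and the groups were free of overlap in only 99 of the 8993. That band leaves out the dimmest and the brightest members, most of the called ones among them. Within the whole range of Hox WB means, 4.38 to 8.74, lay 29825 probe sets. Of these 32.6% were called, 9.7% higher and 22.9% lower, with a median difference of -0.16. Without IP 2, IP 5, IP 6 and IP 8, the arrays with the brightest hybridization controls, 12 Hox probe sets were higher and 0 lower (25%, against 43.9% of all probe sets). The median SD over members was 0.88 in IP and 0.58 in WB, beside 0.74 in IP and 0.34 in WB over all probe sets. Over the 8993 probe sets of like WB mean it was 0.87 in IP and 0.68 in WB, so the members' spread was that of dim probe sets.

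Counts by cluster were small. Cluster C had 3 of 11 probe sets higher, with a median difference of 0.40 over the cluster. Clusters A and B had 1 of 16 and 1 of 11 higher, with medians of 0.50 and 0.21, and B also held the only fall. Cluster D had 0 of 10 called in either direction, with a median of 0.14. By class, 1 of 16 probe sets of paralogues 1 to 4 was higher, 3 of 15 of paralogues 5 to 8 were higher and 1 lower, and 1 of 17 of paralogues 9 to 13 was higher. Clusters and classes were not tested against each other. Counted once a gene by its brightest probe set, 3 of 33 genes were higher (9.09%, against 21.7% of 18193 genes) and 1 was lower (3.03%, against 21.7%), with 43.4% of all genes called in either direction.

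**Figure D2:**
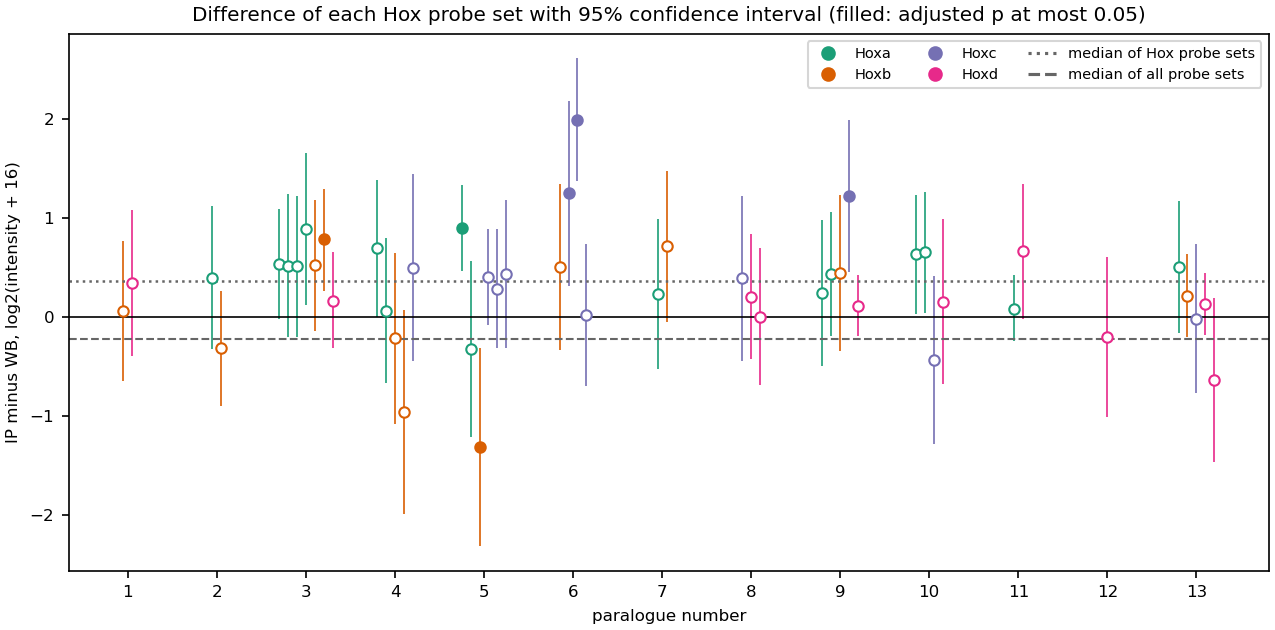
Difference in mean log2(intensity + 16), IP minus WB, for each of the 48 Hox probe sets by paralogue number, coloured by cluster, with 95% confidence intervals; filled points passed the adjusted p of 0.05. The 5 filled points above 0 are Hoxb3, Hoxa5, 2 probe sets of Hoxc6 and Hoxc9, the filled point below 0 is Hoxb5, and the dotted and dashed lines are the medians of 0.36 for Hox and -0.23 for all probe sets.

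The direction of the family as a whole turned with the way arrays were scaled to each other. The median difference over Hox probe sets was 0.36 on the deposited scale, 0.76 after quantile normalization and 0.79 after centring each array on its median, but -0.58 after scaling on the spiked hybridization controls. All probe sets had medians of -0.23, 0.11, 0.20 and -1.17 under the same 4 scalings, so that the Hox median lay above that of all probe sets each time. Calls followed the scale, with 5 higher and 1 lower as deposited, 24 and 0 after quantile normalization, 25 and 0 after median centring, and 1 and 19 on the hybridization controls. Called in either direction were 12.5%, 50%, 52.1% and 41.7% of the Hox probe sets, against 45%, 46.1%, 46.9% and 71.3% of all probe sets. Of all probe sets 14.2%, 24.1%, 28.4% and 2.88% were higher, and 30.8%, 22%, 18.5% and 68.4% lower. Higher calls made up 31.6%, 52.3%, 60.6% and 4.04% of all calls over the whole array under these scalings. The same shifts appeared in genes of tissues outside the brain, a list of testis, skin, gut, liver, milk and similar markers, whose medians were 0.38, 0.70, 0.81 and -0.56. On the deposited scale 5 of the 34 measured genes of that list were higher and 4 lower (26.5% called, against 43.4% of all genes). The hybridization controls averaged 13.69 to 15.31 over the IP arrays and 13.05 to 13.54 over the WB arrays (log2), so they differed between the groups themselves. Below, a rise or fall is one on the deposited scale.

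**Figure D3:**
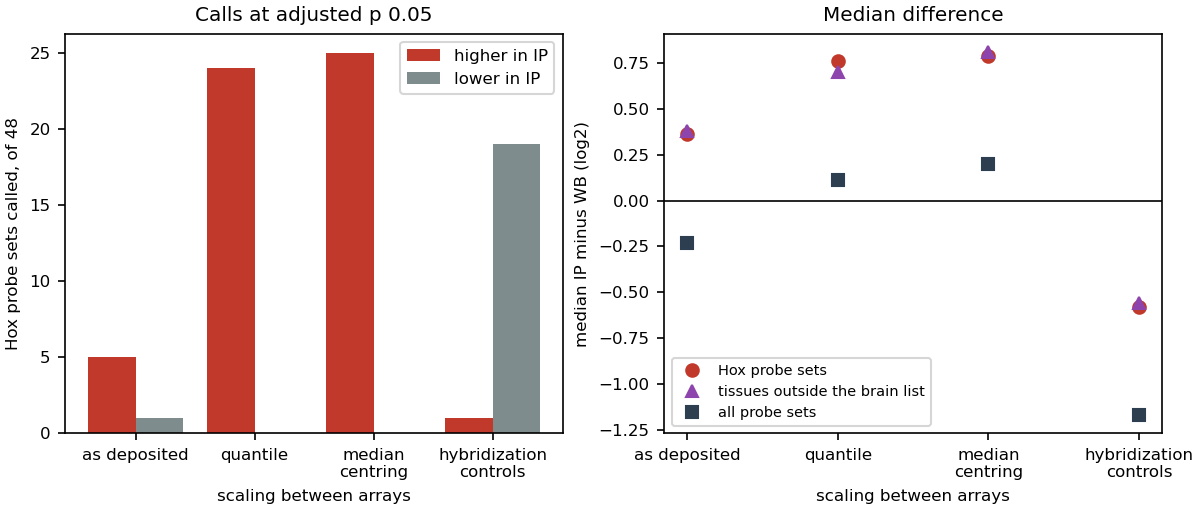
Left, number of the 48 Hox probe sets higher and lower in IP at an adjusted p of 0.05 under 4 scalings of the arrays; right, the median IP minus WB difference in log2(intensity + 16) of Hox probe sets, of the list of tissues outside the brain and of all probe sets. The Hox median moved between -0.58 and 0.79, beside the list of tissues outside the brain and above all probe sets in each scaling.

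Among the paralogues 1 to 4, Hoxb3 was the gene that rose. It acts in the caudal hindbrain and in the pharyngeal arches. Probe set 1456229_at read 139, 350 and 713 in IP (lowest, median and highest of 9 arrays) and 127, 189 and 272 in WB. In IP 7 of 9 arrays lay above every WB array, and the groups overlapped through the others. Its mean was 8.44 ± 0.60 in IP and 7.66 ± 0.33 in WB (SD, n = 9 each), a difference of 0.78 (SE 0.25, 95% CI 0.26 to 1.29, limma adjusted p = 0.0132), or 1.71-fold. The sign turned on the hybridization controls, at -0.17. A dimmer Hoxb3 probe set, 1427605_at, had a difference of 0.52 (adjusted p = 0.196).

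Hoxa3, which shapes the thymus, parathyroid and lower hindbrain, had 4 probe sets, and 0 of them passed the test. The brightest, 1452421_at, read 55.7, 524 and 1160 in IP and 148, 257 and 474 in WB. In IP 7 arrays lay above every WB array and 1, IP 8, lay below every one. The means of 8.99 ± 1.16 in IP and 8.10 ± 0.49 in WB differed by 0.88 (SE 0.37, CI 0.12 to 1.65), with an adjusted p of 0.0542 in limma. Without IP 8 the difference was 1.24 (adjusted p = 0.000193), and without WB 4 it was 0.99 (adjusted p = 0.0388), so that leaving out either array gave a call. It was also called with 64 added (adjusted p = 0.0326), after quantile normalization, median centring and array weighting, and under both brightness filters, but was -0.06 on the hybridization controls. The other 3 Hoxa3 probe sets had differences of 0.53, 0.51 and 0.51.

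Hoxb4 and Hoxc4 act at the border of hindbrain and spinal cord, and Hoxb4 is also known from blood stem cells. Hoxb4 probe set 1460379_at read 8.51, 107 and 384 in IP and 39.5, 197 and 340 in WB. Its IP arrays spanned both sides of the WB range, and its difference of -0.96 (SE 0.50, CI -1.99 to 0.07) had an adjusted p of 0.121. Without IP 6 it was -1.21 and passed, with an adjusted p of 0.0422. The second Hoxb4 probe set, 1451761_at, had -0.22 (adjusted p = 0.703). Hoxc4 read 23.6, 306 and 643 in IP and 29.4, 173 and 335 in WB, with a difference of 0.49 (CI -0.45 to 1.44, adjusted p = 0.405), and -0.45 on the hybridization controls. Its groups lay across one another, with IP 8 and WB 6 lowest.

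Hoxd3, a partner of Hoxa3 in the upper neck skeleton of the mouse, varied little among arrays. It read 114, 204 and 264 in IP and 110, 191 and 227 in WB, and its means were 7.73 ± 0.41 in IP and 7.57 ± 0.33 in WB. The difference of 0.16 (CI -0.32 to 0.65, adjusted p = 0.605) was smaller than the spread of either group. It depended on the scaling, as Hoxd3 was called in both directions. The difference was 0.60 after quantile normalization and 0.59 after median centring (limma adjusted p = 0.0298 and 0.0368). On the hybridization controls it was -0.78 (limma adjusted p = 0.0418). Hoxa2, which specifies the second pharyngeal arch and rhombomere 2, read 18, 117 and 287 in IP and 24.3, 83.6 and 146 in WB (difference 0.39, adjusted p = 0.388, and -0.55 on the hybridization controls). After quantile normalization the Hoxa2 difference was 0.90 (limma adjusted p = 0.0285). Hoxb1 and Hoxb2 had differences of 0.06 and -0.32, with adjusted p-values of 0.915 and 0.379 in limma.

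Of the paralogues 5 to 8, Hoxa5 gave the brightest Hox signal. It is a gene of the caudal hindbrain, lung and chest that stays expressed in brainstem neurons after birth in the mouse. Probe set 1443803_x_at read 488, 899 and 1410 in IP and 280, 430 and 540 in WB. All 9 IP arrays lay above the WB mean, and 6 of them above every WB array. The mean of 9.64 ± 0.55 in IP against 8.74 ± 0.29 in WB gave a difference of 0.90 (SE 0.21, CI 0.46 to 1.33, limma adjusted p = 0.00106), or 1.86-fold. On the hybridization controls the difference was -0.05. Its second probe set, 1448926_at, did not go the same way, with means of 6.40 in IP and 6.74 in WB and a difference of -0.33 (CI -1.22 to 0.56, adjusted p = 0.563). The suffix x marks a probe set with probes that can bind other sequences too, and what else this one binds was not tested.

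Hoxb5, which acts in neural crest and the enteric nervous system, held the single fall. It read 21.3, 74.6 and 340 in IP and 32.8, 388 and 483 in WB. Both groups were split, as 3 of the 9 IP arrays (IP 1, IP 3 and IP 4) read 259 to 340 and the rest 107 or less, while WB 6 read 32.8 and WB 7 129 below the other 7. The means of 6.86 ± 1.21 in IP and 8.18 ± 1.12 in WB differed by -1.32 (SE 0.48, CI -2.32 to -0.32, limma adjusted p = 0.0284), a level 2.5-fold lower. The call was lost after quantile normalization, median centring and array weighting, and when any of IP 5, 7, 8 and 9 or WB 1, 3, 5 and 8 was left out, with differences from -1.64 to -1.12 over all 18 omissions and an adjusted p of at most 0.0609. The direction held in each of these.

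Hoxc6, a gene of forelimb-level motor neurons and the mammary gland, had 3 probe sets that disagreed. Probe set 1427362_x_at read 95, 173 and 245 in IP and 10.2, 25 and 107 in WB, with 8 of 9 IP arrays above every WB array. Its difference was 1.99 (SE 0.30, CI 1.37 to 2.61, limma adjusted p = 6.56e-06), and 1.05 (adjusted p = 0.00836) on the hybridization controls. As its WB mean was low, the size depended on the amount added before the log, from 1.28 with 64 added to 2.53 with 1 added. This too is an x probe set whose other targets were not tested. Probe set 1427361_at read 12.4, 101 and 189 in IP and 6.55, 10.2 and 129 in WB, and its difference was 1.25 (SE 0.45, adjusted p = 0.0281). When any of IP 1, 8 and 9 or WB 1, 2, 4, 5 and 8 was left out, the difference was 1.12 to 1.16 and the adjusted p 0.0515 to 0.0561, just past the threshold. On the hybridization controls it was 0.30 (adjusted p = 0.574). Most of its WB arrays clustered at the bottom of the scale, and 4 lay above the lowest IP array. The brightest probe set, 1427454_at, read 48.8, 242 and 358 in IP and 79, 200 and 284 in WB, and its difference was 0.02 (CI -0.70 to 0.73, adjusted p = 0.975). The rises were thus in the 2 probe sets with the lower WB means, 5.40 and 5.54, and not in the one at 7.61. Hoxa7, of the thoracic vertebrae, read 43.8, 184 and 304 in IP and 38, 133 and 257 in WB, with a difference of 0.23 (adjusted p = 0.642), and -0.71 on the hybridization controls.

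In the caudal class, Hoxc9, which represses limb-level programmes in thoracic motor neurons, was the gene that rose. It read 20.8, 108 and 280 in IP and 15.4, 24.5 and 141 in WB. WB 2 held the 141, and the other WB arrays read 30.1 or less. The means of 6.71 ± 0.95 in IP and 5.49 ± 0.70 in WB gave a difference of 1.22 (SE 0.37, CI 0.45 to 1.99, limma adjusted p = 0.00973). On the hybridization controls it was 0.28 (adjusted p = 0.56) and the call was lost. Hoxc9 and both rising Hoxc6 probe sets had WB means below the 5.70 to 5.92 of the trpn controls. The Hoxc9 difference was 1.59 with 1 added before the log and 0.74 with 64. Hoxd12 read 21.4, 148 and 223 in IP and 37.9, 148 and 229 in WB, with a difference of -0.21 (adjusted p = 0.701). The 16 uncalled probe sets of the caudal class had differences between -0.64 and 0.66.

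**Figure D4:**
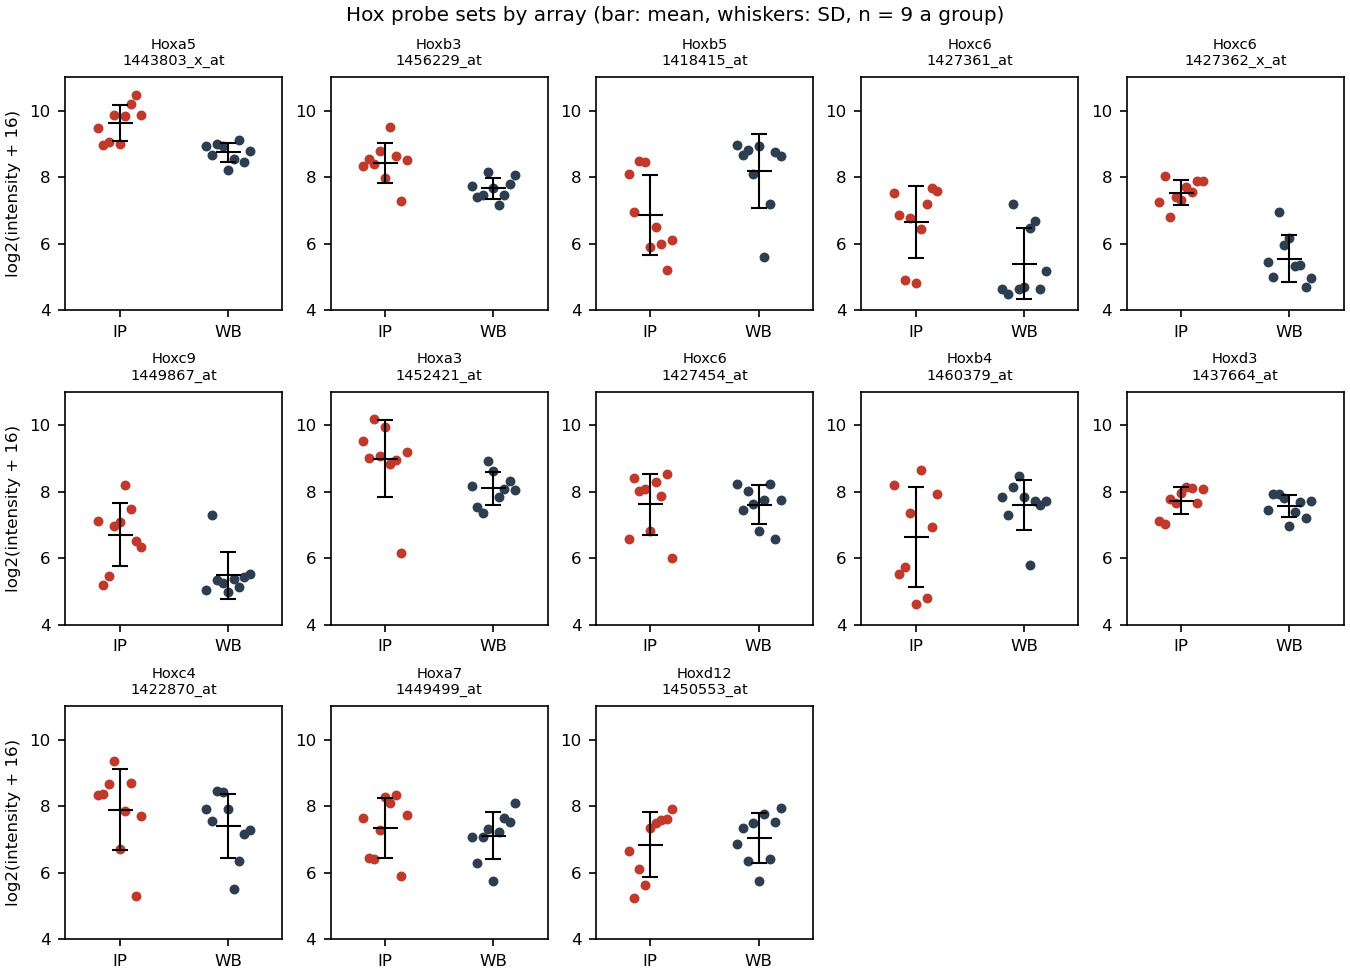
Log2(intensity + 16) of the 13 named Hox probe sets on each of the 9 IP and 9 WB arrays (points), with the mean and SD of each group (bar and whiskers). Hoxc6 1427362_x_at shows 8 of 9 IP arrays above all WB arrays, Hoxb5 shows both groups split, and Hoxc9 shows 1 WB array at 141 above the others.

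Several probe sets were available for 11 Hox genes. In 8 of these all differences had 1 sign, and in 3 at least 1 probe set was called. No gene had probe sets called in opposite directions.

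Whether bright members went up and down together over arrays was described by correlation. The median Pearson's r between probe sets of different genes over 9 arrays was 0 in IP and 0.10 in WB, over 1108 pairs that share the arrays. For the 10 brightest members it was 0.02 in IP and 0.15 in WB, beside 0.04 in IP and 0.14 in WB over the hindbrain list and 0.04 in IP and 0.08 in WB over the list of tissues outside the brain. Of the 45 pairs among the 10, 5 in IP and 6 in WB had a raw p below 0.05 in exact two-sided permutation tests of Pearson's r, and 0 and 0 after Benjamini-Hochberg adjustment over the pairs of a group. In WB, Hoxb4 and Hoxc4 had r = 0.85 (exact permutation p = 0.00461, adjusted 0.104) and Spearman's rho = 0.82 (exact permutation p = 0.0108, adjusted 0.485). Without WB 4 and WB 6, the arrays furthest from the Hoxb4 median, r was 0.48. Hoxb5 and Hoxc4 had r = 0.83 in WB (exact permutation p = 0.0109, adjusted 0.146) and rho = 0.62 (exact permutation p = 0.0857, adjusted 0.643), and r was -0.27 without WB 6 and WB 7. The relation of Hoxb5 and Hoxc4 in WB thus did not hold without those arrays. In IP, Hoxb5 and Hoxc4 had r = 0.76 (exact permutation p = 0.0115, adjusted 0.259) and rho = 0.70 (exact permutation p = 0.0433, adjusted 0.54), with r = 0.67 without IP 3 and IP 4. Hoxb4 and Hoxc4 had r = 0.02 in IP. WB 6 held the lowest WB value of Hoxb3, Hoxb4, Hoxb5 and Hoxc4. Its sum over the hindbrain list was also the lowest of the WB arrays, though only 3 of the 24 genes of that list had their own lowest WB value there. With WB 6 and IP 8 left out together, 6 Hox probe sets were higher and 1 lower (14.6%, against 41.9% of all probe sets).

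**Figure D5:**
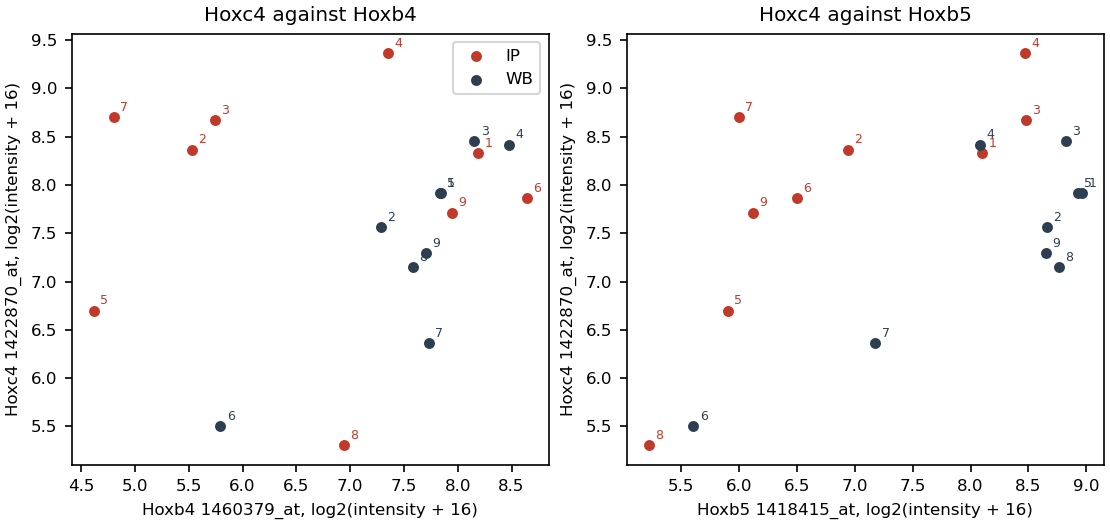
Log2(intensity + 16) of Hoxc4 on each array against Hoxb4 (left) and Hoxb5 (right), with IP and WB arrays in different colours and labelled by number. WB 6 is the lowest WB array on both axes of each panel, and without the 2 arrays furthest from the median of the x axis r in WB was 0.48 on the left and -0.27 on the right.

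Other genes of the hindbrain gave calls in both directions, at a share near that of all genes. Of 29 listed, 24 were measured, with 3 higher and 6 lower (37.5% called, against 43.4% of all genes) and a median difference of -0.27. On the hybridization controls 0 were higher and 17 lower, a scaling on which 68.4% of all probe sets were lower and the share over genes was not computed. Egr2, which patterns rhombomeres 3 and 5 and activates Hoxa2 and Hoxb2 there, rose by 1.57 (SE 0.30, adjusted p = 0.000141), and its function in adult brain includes a response to neuronal activity. Atoh1 and Gata2, regulators of rhombic lip and ventral hindbrain neurons, were higher by 1.05 and 0.76 (adjusted p = 0.0215 and 0.00566). Gata2 was higher on 1 of its 2 probe sets and turned to -0.18 on the hybridization controls. Atoh1 had a WB mean of 5.46, below the 5.70 to 5.92 of the trpn controls. Its rise was weaker with array weights and without IP 2, IP 5, IP 6 and IP 8. The falls included Slc6a5, the neuronal glycine transporter, and the glycine receptor subunit Glra1, each on 1 of its 2 probe sets. Slc6a5 had means of 7.83 ± 0.70 in IP and 9.74 ± 0.34 in WB with no overlap, and Glra1 had 6.86 ± 1.58 in IP and 10.03 ± 0.45 in WB. Their differences were -1.92 and -3.17 (adjusted p = 8.64e-07 and 4.73e-06), and Ptf1a, a regulator of inhibitory neurons, had -1.30. The other glycine transporter, Slc6a9, had -0.17 (adjusted p = 0.603). Tph2, of serotonin neurons in the raphe, had 0.06 (adjusted p = 0.867), and En2 had 0.37 (adjusted p = 0.322). Orexin's own gene Hcrt had a difference of 0.21 (adjusted p = 0.568), and -0.73 on the hybridization controls.

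Lists of partners and regulators of Hox genes are read against the 43.4% of all genes called, 21.7% in each direction. On the hybridization controls 2.88% of all probe sets were higher and 68.4% lower. These are shares of probe sets, while the lists count genes by the brightest probe set. The share over genes was not computed on that scaling, so list counts there have no like share beside them. Of 8 TALE cofactors 2 were higher and 3 lower (62.5%), with a median of -0.25, and 1 was higher and 5 lower on the hybridization controls. Meis2 was 6.18-fold higher with no overlap, at a difference of 2.63 (SE 0.14, adjusted p = 1.98e-13), although 1 of its 4 probe sets was lower. Pknox2 was higher by 0.84, with 1 of its 2 probe sets higher and 1 lower. Pbx2, Pbx4 and Meis1 had differences of -1.60, -1.94 and -1.11, all called, although 1 of the 3 Pbx2 probe sets was higher. Pbx3, Meis3 and Pknox1 had 0.12, -0.24 and -0.26 and were not called. Among 17 measured genes of retinoid signalling and the Cdx factors upstream of Hox genes, 1 was higher and 4 lower (29.4%, median -0.29). On the hybridization controls 0 were higher and 14 lower. The retinoic acid binding proteins Crabp1 and Crabp2 had -1.87 and -1.24, and Rxra had -1.05 with 1 of its 3 probe sets called. The rise was Gdf11 at 0.51, whose call was lost in 11 of 18 omissions of 1 array. Of 20 Polycomb and Kmt2 genes, which silence and maintain Hox expression, 5 were higher and 7 lower (60%, median 0.03; 0 and 13 on the hybridization controls). Kdm6b, a demethylase that removes the Polycomb mark, and Ezh2, which writes it, were higher by 1.71 and 1.08, and Ezh1 and Kmt2a had -1.43 and -1.45. Cbx2 was higher by 1.28 and Ring1 had -1.39. For Kdm6b 1 of 3, for Cbx2 1 of 2 and for Ezh1 1 of 4 probe sets was called. These lists and the Hox members shared the same arrays and were not tested against each other.

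Measures of array quality also differed between the groups. The median intensity was 154 to 203 over IP arrays and 221 to 267 over WB arrays. Gapdh signal at the 3′ end exceeded that at the 5′ end by 3.37 to 5.55 in IP and 1.33 to 1.78 in WB (log2). The same measure of Actb was -1.33 to 0 in IP and -0.23 to 0.03 in WB. The summed Hox intensity was 5140 to 7120 in IP and 3500 to 5780 in WB. The part of array quality in the Hox differences was not tested. Markers of other tissues in the dissection are read against the 43.4% of all genes called, 21.7% in each direction. Of 4 red cell genes 0 were higher and 3 lower (75% called, summed 298 to 1280 in IP and 5090 to 16300 in WB). Of 14 endothelial and mural genes 1 was higher and 9 lower (71.4% called, 6120 to 8720 in IP and 8870 to 10400 in WB). Meningeal genes were called near the share of all genes, with 1 higher and 5 lower of 13 (46.2%, 10100 to 23800 in IP and 20700 to 29200 in WB). Leukocyte genes were called below it, with 1 higher and 1 lower of 11 (18.2%, 1320 to 2730 in IP and 1220 to 1930 in WB). Of 8 neuronal genes 5 were higher and 2 lower by the brightest probe set (87.5% called, 105000 to 181000 in IP and 74000 to 97700 in WB). Probe sets of 1 gene often disagreed, as Rbfox3 had 1 higher and 2 lower, Map2 1 and 2, Gad1 1 and 1, and Syt1 1 and 3. Snap25 and Nefl, which were higher, had 0 probe sets lower, and Gad2 had 0 higher and 2 lower. The part of these lists in the Hox differences was not tested.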

How the data were processed

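RNA of 9 IP and 9 WB samples was measured, grouped by the labels. The values deposited are MAS5 intensities on a linear scale (named in the submitters' processing notes, with no version). Targets came from 5 ng of RNA after NuGEN amplification, per the labels' protocols. Detection calls were not used here, and the number of arrays limits the precision. No array was a copy of another: 2 arrays shared at most 1 identical value over 45101 probe sets.

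After adding 16 to each intensity, log2 was taken and 45037 probe sets (64 array controls left out) were fitted with limma 3.58.1 in R 4.3.3, with an intensity trend and Benjamini-Hochberg adjustment over all of them. Adding 16 understates folds of dim probe sets. Probe sets were named from GEO's platform annotation, and a gene with several was also represented by the brightest. The procedure was tested on simulated data. Correlations were tested by exact permutation with SciPy 1.17.1.

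The Hox members, the gene lists and the alternatives were chosen with earlier results of these data known. Named with values were the Hox probe sets past adjusted p 0.05 (up to 10 a direction), the 10 with the highest WB mean, Hcrt, and of the 4 lists on hindbrain, cofactors, retinoid signalling and Polycomb up to 3 rises, 3 falls and 3 uncalled genes. Alternatives were added amounts of 1 and 64, 3 other scalings, 2 brightness filters, no trend, array weights, a replicate block and each array left out. For genes, the mean over a gene's probe sets and only probe sets whose ID ends in _at without s, x or a were also used. Leaving out 4 IP arrays, or WB 6 with IP 8, was chosen after seeing the data. Same-numbered IP and WB arrays did not deviate together.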

Additional observations from a re-analysis of the deposited data

Results flagged for a closer look

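Of 98 group values of named genes examined for an array set apart from the rest of its group, 5 stood apart, 3 of them among the 42 of Hox probe sets. The rule compares the gap between the extreme array and its neighbour with the group's whole range, and flags about 1 in 20 groups by chance. The Hoxc9 probe set 1449867_at read 141 on WB 2, where the next highest WB array read 30.1. The Hoxa3 probe set 1452421_at read 55.7 on IP 8, where the next lowest IP array read 438. The Hoxb4 probe set 1460379_at read 39.5 on WB 6, where the next lowest WB array read 140. Outside the Hox clusters, Ezh1 read 29.6 on IP 9 (nearest 190) and Hcrt read 73.8 on IP 2 (nearest 237).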

How the results depend on the processing

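The main limit is scaling. With quantile normalization, median centring and hybridization control scaling, Hox probe sets higher in IP numbered 24, 25 and 1, and those lower 0, 0 and 19. Hox genes higher numbered 14, 14 and 0, and those lower 0, 0 and 14. Over all probe sets 10852, 12802 and 1297 were higher, and 8322 (median centring) and 30824 (hybridization controls) lower. Hindbrain list genes higher numbered 5, 6 and 0, and those lower 3, 3 and 17. On the hybridization controls, called rises turned to -0.05 for Hoxa5, -0.17 for Hoxb3, -0.18 for Gata2, -0.10 for Pknox2 and -0.43 for Gdf11, without a call there. Some differences above 0 that were not called as deposited turned and were called lower there. They were -0.93 for Hoxc6 1427454_at, -0.78 for Hoxd3, -0.89 for Hoxb1, -0.82 for Hoxd13 1422239_at and -0.88 for Tph2. On that scaling 68.4% of all probe sets were lower. Other uncalled differences above 0 turned there without a call, to -0.06 for Hoxa3, -0.45 for Hoxc4, -0.71 for Hoxa7, -0.55 for Hoxa2, -0.42 for Hoxb3 1427605_at and -0.73 for Hcrt. Calls were lost there for Hoxc9 (0.28), Hoxc6 1427361_at (0.30), Egr2 (0.63), Atoh1 (0.11), Kdm6b (0.76), Cbx2 (0.33) and Ezh2 (0.14). Why the scalings differ was not tested. Testing only probe sets at or above the median mean left 3 Hox probe sets, 3 higher and 0 lower, with 0 Hox genes lower. Of all probe sets tested there 60% were called, 22.3% higher and 37.7% lower (8480, fewer being tested). That mean is over both groups, so a probe set can pass through the group where it is high, and the 3 rises are no separate support. Array weights gave 0 Hox probe sets and 0 genes lower. Leaving out the 4 IP arrays with the brightest hybridization controls, chosen after seeing the data, gave 12 Hox probe sets and 10 genes higher and 0 and 0 lower. The mean over a gene's probe sets gave 5 genes higher. With only probe sets whose ID ends in _at without s, x or a, 2 Hox genes were higher and 1 lower, beside 3 and 1 as reported. Leaving out single arrays gave 4 to 7 Hox probe sets higher and 0 to 2 lower, and 3 to 5 genes higher and 0 to 2 lower. Of the Hox probe sets 8.33% to 18.8% were called in these omissions, against 42.5% to 45.2% of all probe sets. Over those omissions 3 to 4 hindbrain genes were higher and 4 to 7 lower. With the replicate number as a block, 5 Hox probe sets were higher and 1 lower, as without it. Same-numbered IP and WB arrays had correlations of deviations from -0.05 to 0.08, which shows no shared deviation, and whether same-numbered samples share an animal is not given in the labels. Calls of Hoxc6 1427362_x_at, Hoxa5, Hoxb3 and Hoxc9 held in every omission of 1 array, while those of Hoxb5 and Hoxc6 1427361_at each crossed the threshold in 8 of 18. Dim probe sets lie near background, so a missed call does not show equal RNA.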

Other observations

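Probe sets annotated to Hox antisense or opposite-strand transcripts were no members. All 5 failed the limma test: Hoxd3os1 had differences of 0.03 and 0.26 (adjusted p = 0.937 and 0.538), Hoxb5os had 0.43 (0.371), and Hoxa11os had -0.02 and 0.54 (0.969 and 0.192). Hoxd3os1 averaged 5.13 and 6.91 in IP against 5.10 and 6.65 in WB. Hoxb5os averaged 6.71 in IP and 6.27 in WB.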
